A study of Mus musculus with 6 samples.

Results

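The genes described here build the 2 routes by which cells show peptides to T cells, MHC class I and MHC class II. They were taken by symbol from the deposited expression table: 33 of 25124 listed genes, 23 of the class I route and 10 of the class II route, all 33 present. RNA was measured in RAW264.7, a mouse macrophage-like line that grew out of a leukaemia virus-induced tumour of a BALB/c mouse. All libraries came from a control line that had received a Cas9 plasmid with no guide RNA, made beside an E4BP4 knockout, and grown in 25 mM glucose with 10% serum. The M0 group (3 libraries) was left without IL-4, and the M2 group (3 libraries) received IL-4 at 10 ng/ml, for a time that the labels do not state. All 3 M0 titles, and no M2 title, carry a re-analysis note, so anything that note stands for cannot be told apart from IL-4. Whether replicates were separate cultures is not stated, and the p-values below reflect no more than the scatter among these libraries, which could be technical.

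Class I molecules pair a heavy chain with beta-2 microglobulin and carry peptides cut by the proteasome in the cytosol, moved into the endoplasmic reticulum by the TAP transporter. Class II molecules pair an alpha with a beta chain around the invariant chain, CD74, and pick up peptides from endocytosed protein with the help of the editor DM. Class II is the hallmark of professional antigen-presenting cells and depends on the transactivator CIITA. NLRC5 is its relative for class I genes.

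Levels are in TPM (transcript abundance), a value scaled for transcript length and library depth. Reads counted in the listed genes came to 15615702 to 19511184 per library, recovered from the TPM values as whole reads. Of the 8 macrophage markers Adgre1, Csf1r, Cd68, Itgam, Ptprc, Spi1, Lyz2 and Fcgr1, all 8 were above the filter on low values, with sums of 2370 to 2580 TPM in M0 and 2160 to 2270 TPM in M2. Sums were far lower for markers of dendritic cells (1.51 to 1.89 TPM in M0 and 0.771 to 1.78 TPM in M2), B cells (0.262 to 0.407 and 0.177 to 0.244 TPM), T cells (2.58 to 2.71 and 2.15 to 2.59 TPM) and fibroblasts (0.782 to 1.08 and 0.677 to 0.808 TPM). The T cell sum was mostly Lck, which passed the filter, at 2.54 ± 0.047 TPM (SD, n = 3) in M0 and 2.29 ± 0.224 TPM (SD, n = 3) in M2. The T cell markers Cd3e, Cd3d and Cd4 had 2, 3 and 6 reads in M0 and 6, 1 and 4 reads in M2. Cd3g and Cd8a had 0 reads in all 6 libraries. M2 replicate 3 stood apart. Against the mean of the other M2 libraries on the log2(TPM + 1) scale, transcripts shorter than 1300 bases had a median difference of 0.13. Transcripts longer than 4000 bases had one of -0.27. Results that turn on that library are given with and without it.

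The promoters of MHC genes are known for a shared layout: an X box bound by RFX and CREB-family proteins, followed by a Y box, an inverted CCAAT read as ATTGG and bound by NF-Y, with NLRC5 or CIITA recruited on top. RefSeq promoter windows (GRCm38.p6, 250 bases before to 50 after the start) were at hand for 27 of the 33 genes, 20 of class I and 7 of class II. The 180 bases just before the start are shown for 3 class I genes and 2 class II genes to let the layout be compared across the routes. They are sequences of the reference strain. Alleles of the BALB/c strain may differ, in these promoters and in the class II transcripts too, and the part of this was not tested. Capitals mark TGANG, a loose core of the X box, and the ATTGG that starts 22 to 28 bases after it, and in H2-K1 and H2-D1 also GGGATTCCC, an NF-kappaB-type site. H2-K1 lies at chr17:34000334-34000513 (minus strand), H2-D1 at chr17:35262914-35263093, B2m at chr2:122147507-122147686, H2-Aa at chr17:34287824-34288003 (minus strand) and H2-Eb1 at chr17:34305687-34305866, the others on the plus strand.
H2-K1: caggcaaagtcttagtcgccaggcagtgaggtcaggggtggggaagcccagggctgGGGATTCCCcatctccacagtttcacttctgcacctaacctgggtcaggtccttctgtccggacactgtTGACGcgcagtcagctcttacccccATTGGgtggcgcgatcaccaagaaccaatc
H2-D1: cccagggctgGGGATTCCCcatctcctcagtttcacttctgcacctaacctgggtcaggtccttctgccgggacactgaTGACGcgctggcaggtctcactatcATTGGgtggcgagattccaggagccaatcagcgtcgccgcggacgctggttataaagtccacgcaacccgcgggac
B2m: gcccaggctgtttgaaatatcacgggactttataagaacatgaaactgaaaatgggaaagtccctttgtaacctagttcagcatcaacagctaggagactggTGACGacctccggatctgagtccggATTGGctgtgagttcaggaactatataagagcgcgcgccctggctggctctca
H2-Aa: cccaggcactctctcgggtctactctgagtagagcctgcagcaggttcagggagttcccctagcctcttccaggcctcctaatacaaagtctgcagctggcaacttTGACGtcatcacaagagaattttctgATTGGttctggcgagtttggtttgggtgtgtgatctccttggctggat
H2-Eb1: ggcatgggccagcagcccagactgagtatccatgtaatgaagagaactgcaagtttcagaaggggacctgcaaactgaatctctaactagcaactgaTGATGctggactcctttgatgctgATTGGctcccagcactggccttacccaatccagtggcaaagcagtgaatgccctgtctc

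The TGANG-to-ATTGG spacing of the marked pairs was 25 bases in H2-K1, H2-D1 and B2m, 26 in H2-Aa and 24 in H2-Eb1. In H2-D1 and H2-Eb1 another TGANG also lies 22 to 28 bases before the marked ATTGG. It overlaps the start of the marked TGANG, so only its first bases are in lower case. Where more than 1 TGANG was in range, the one with spacing nearest 25 bases was marked. The closeness of these spacings is therefore partly set by that choice. On the gene's own strand the pair was found in 7 of 20 class I genes (B2m, H2-D1, H2-K1, H2-M3, H2-Q4, H2-Q6 and H2-Q7) and in 5 of 7 class II genes (H2-Aa, H2-DMb1, H2-DMb2, H2-Eb1 and H2-Ob). Of all 32851 windows, 1.03% held it on the gene strand and 1.92% on either strand. The spacing range was chosen after the sequences were seen, so the counts are a description. Searched on both strands, GGGATTCCC lay in H2-D1, H2-K1, H2-Q6 and H2-Q7 (0.353% of all windows). GAAANNGAA, a core of interferon-response elements, lay in B2m, Erap1, H2-T22, H2-T23 and Psme1 (8.56%). ATTGG alone was in 37.4% of windows, TGANG in 89.4% and TGACG, a form of TGANG, in 20.8%. Genes that carry the pair behaved differently from each other in expression, from H2-Aa, higher in M2, to H2-D1, lower, and B2m, which did not pass the test.

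Messages of the class II alpha and beta chains were at the edge of detection in both groups and higher in M2. H2-Aa, the alpha chain of the I-A molecule, was at 0, 0 and 0 TPM in M0 and at 0.345, 0.770 and 0.359 TPM in M2, which is 0 against 26 reads. Its partner H2-Ab1, the beta chain of I-A, was at 0.107, 0.111 and 0.382 TPM in M0 and at 0.599, 1.18 and 0.970 TPM in M2, or 10 against 52 reads. H2-Eb1, the beta chain of I-E, was at 0, 0 and 0 TPM in M0 and at 0.349, 0.440 and 0.311 TPM in M2, or 0 against 29 reads. In all 3 genes every M2 library lay above every M0 library. Of the 11202 genes that passed the filter on low values, which these 3 did not, 25.1% also lay wholly above in M2. H2-Ab1 was 4.58-fold higher in M2, and 8.40-fold without M0 replicate 3, which held 6 of its 10 M0 reads. With a floor of 3 reads set in place of the count of 0 over the M0 group, H2-Aa was 8.02-fold higher and H2-Eb1 8.95-fold higher. That floor was a set value with no confidence level. It allows for no counting error in the M2 reads and no scatter among libraries.

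**Figure D1:**
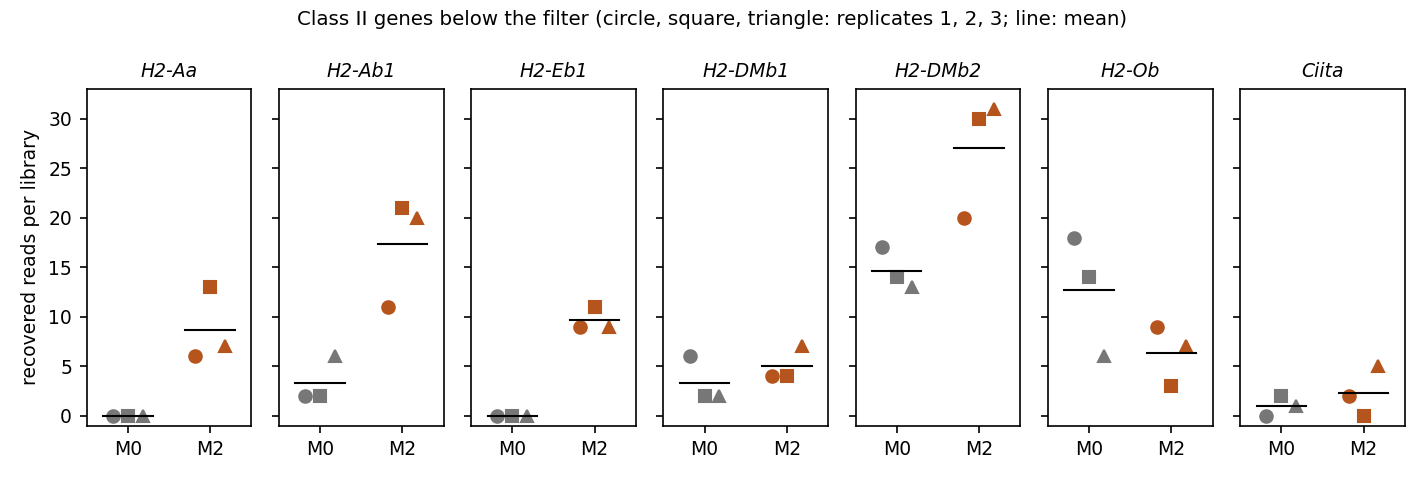
Recovered reads per library (vertical axis, shared) of the 7 class II genes below the filter on low values, M0 in grey and M2 in orange, with the group mean as a line. The chains H2-Aa, H2-Ab1 and H2-Eb1 and the editor subunit H2-DMb2 have no overlap between groups, with M2 higher, while H2-DMb1, H2-Ob and Ciita overlap.

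Summed over the 3 chains, the level was 0.107, 0.111 and 0.382 TPM in M0 and 1.29, 2.39 and 1.64 TPM in M2. That rests on 10 reads in M0, 6 of them in M0 replicate 3, and 107 reads in M2. For each of the 3 genes the exact two-sided permutation test gave p = 0.1, the smallest that 3 against 3 libraries can give. They lay below the filter of the test across genes (at least 1 TPM in at least 3 libraries), which therefore gave them no call. With the filter dropped, limma on log2(TPM + 1) with Benjamini-Hochberg adjustment called H2-Aa (log2 fold change 0.56, adjusted p = 0.0106), H2-Ab1 (0.67, adjusted p = 0.0156) and H2-Eb1 (0.45, adjusted p = 7.22e-04) higher. That fit called 10.0% of 19655 genes higher and 11.8% lower. On that scale a gene under 1 TPM shows a small log2 change even where its fold is large.

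The authors' deposited table also called H2-Aa, H2-Ab1 and H2-Eb1 higher in M2, with log2 fold changes of 5.49, 2.28 and 5.64 and adjusted p of 6.98e-04, 5.10e-03 and 3.07e-04. Of the 19143 genes with an adjusted p in the authors' deposited table, 13.6% were called higher and 12.7% lower. For a gene with 0 reads in one group, the size of such a fitted fold change depends on the method. The summed markers of dendritic cells and of B cells, given above, were not higher in M2 than in M0, but single markers did not all go the same way. The dendritic sum was mostly Zbtb46 (1.44 ± 0.115 TPM in M0 and 1.08 ± 0.512 TPM in M2, SD, n = 3). The 7 other dendritic markers summed to 0.276, 0.342 and 0.191 TPM in M0 and 0.361, 0.355 and 0.284 TPM in M2, with overlap, or 46 against 58 reads. Of those 7, 5 had more reads in M2, such as Flt3 with 1 read in M0 and 6 in M2, and 2 had equal numbers. The B cell gene Ms4a1 had 1 read in M0 and 9 reads in M2, and Cd79a 8 and 2 reads. The part of such markers in the class II values was not tested. In bulk RNA, a few cells with much of a message and many cells with little of it cannot be told apart.

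Transcripts of the class II alpha and beta chains stayed far below those of the class I heavy chains in M2 as well. The 8 class I heavy chains together were at 1256 ± 15.8 TPM (SD, n = 3) in M0 and 1054 ± 38.4 TPM (SD, n = 3) in M2. Per unit of class II chain TPM, heavy-chain TPM was 11720, 11180 and 3330 in the M0 libraries and 799, 432 and 670 in the M2 libraries. The groups did not overlap, and the M0 values rest on the 10 reads given above.

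The invariant chain Cd74 behaved differently from the chains it escorts. It was at 394, 359 and 351 TPM in M0 and 411, 381 and 401 TPM in M2, the only class II gene above 10 TPM. The groups overlapped, and limma gave a log2 fold change of 0.11 (95% interval -0.03 to 0.26, adjusted p = 0.177). TPM of Cd74 per TPM of class II chains was 3682, 3235 and 919 in M0 and 318, 160 and 244 in M2.

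The peptide editors split. H2-DMa, the alpha subunit of the DM editor, was at 3.66, 3.80 and 4.62 TPM in M0 and 2.54, 2.09 and 2.82 TPM in M2. Every M2 library lay below every M0 library, and the level fell 1.62-fold (log2 fold change -0.53 ± 0.12 SE, adjusted p = 0.00689). H2-Oa, the alpha subunit of DO, which inhibits DM, was at 5.06, 3.67 and 3.19 TPM in M0 and 1.86, 1.66 and 2.15 TPM in M2. It fell 2.10-fold (log2 fold change -0.77 ± 0.15 SE, adjusted p = 0.00294), again with no overlap. Both calls held in all 14 alternative fits, with smaller log2 fold changes on the authors' log-scale values (-0.25 for H2-DMa and -0.27 for H2-Oa), and the authors' deposited table called both lower too (adjusted p of 0.0160 and 0.00338). H2-Oa shares 21.7% of its 50-base stretches with transcripts of BC051537, so reads of the pair may be uncertain.

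The beta subunits of the editors were too low for the test. H2-DMb2 was at 0.728, 0.623 and 0.661 TPM in M0 and 0.869, 1.34 and 1.20 TPM in M2, or 44 against 81 reads, with M2 above M0 in every library. With the filter dropped limma called it higher (log2 fold change 0.35, adjusted p = 0.0459), while the authors' deposited table did not (adjusted p = 0.421). H2-DMb1, a close copy, was at 0.299, 0.103 and 0.118 TPM in M0 and 0.202, 0.208 and 0.315 TPM in M2, or 10 against 15 reads, with overlap. H2-DMb1 and H2-DMb2 share 27.2% and 30.9% of their 50-base stretches with other genes, largely with each other, so their split is uncertain. Summed as 1 gene, they were at 1.03, 0.726 and 0.779 TPM in M0 and 1.07, 1.55 and 1.52 TPM in M2. The sum passed the filter only through the M2 libraries, where it was high. Its call by limma as higher (log2 fold change 0.36, adjusted p = 0.0431) therefore gives no added support. In this fit H2-DMa and the summed copies had differences of opposite sign. Most reads of the sum were of H2-DMb2, 44 of 54 in M0 and 81 of 96 in M2. The transcript model of H2-DMb2 is a non-coding RefSeq record, so what the sum says of the DM beta subunit is uncertain. The authors' deposited table did not call H2-DMb1 either (adjusted p = 0.713). H2-Ob, the beta subunit of DO, was at 0.430, 0.347 and 0.170 TPM in M0 and 0.218, 0.075 and 0.151 TPM in M2, or 38 against 19 reads, with overlap.

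Ciita, the class II transactivator, had 0, 2 and 1 reads in M0 and 2, 0 and 5 reads in M2, which is 0.056 TPM at most. At this depth a difference was not detectable. In all, 3 of the 10 class II genes passed the filter (Cd74, H2-DMa and H2-Oa), and of those limma called 0 higher and 2 lower. It called 20.1% of all 11202 tested genes higher and 23.7% lower, and 3 genes are too few to set against those shares. At an unadjusted p under 0.05 the count higher among these 3 was also 0, as it was by limma-voom and in the authors' deposited table.

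Class I genes were abundant, and the group leaned lower in M2. All 23 passed the filter, and limma called 12 lower, 2 higher and 9 neither, at an adjusted p under 0.05. Over all 11202 genes tested, 23.7% were called lower and 20.1% higher. The median log2 fold change was -0.20 over the 23 genes and -0.03 over all tested genes. In 13 of the 23 all M2 libraries lay below all M0 libraries, in 2 all lay above, and in 8 the groups overlapped. Among all tested genes 30.8% lay wholly below and 25.1% wholly above. No test was made of the list as a whole. The authors' deposited table called 9 of the 23 lower and 3 higher (Erap1, Psmb10 and Canx). Without M2 replicate 3 limma called 16 lower and 3 higher, and more genes were called over the whole table too, 25.2% lower and 25.6% higher.

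**Figure D2:**
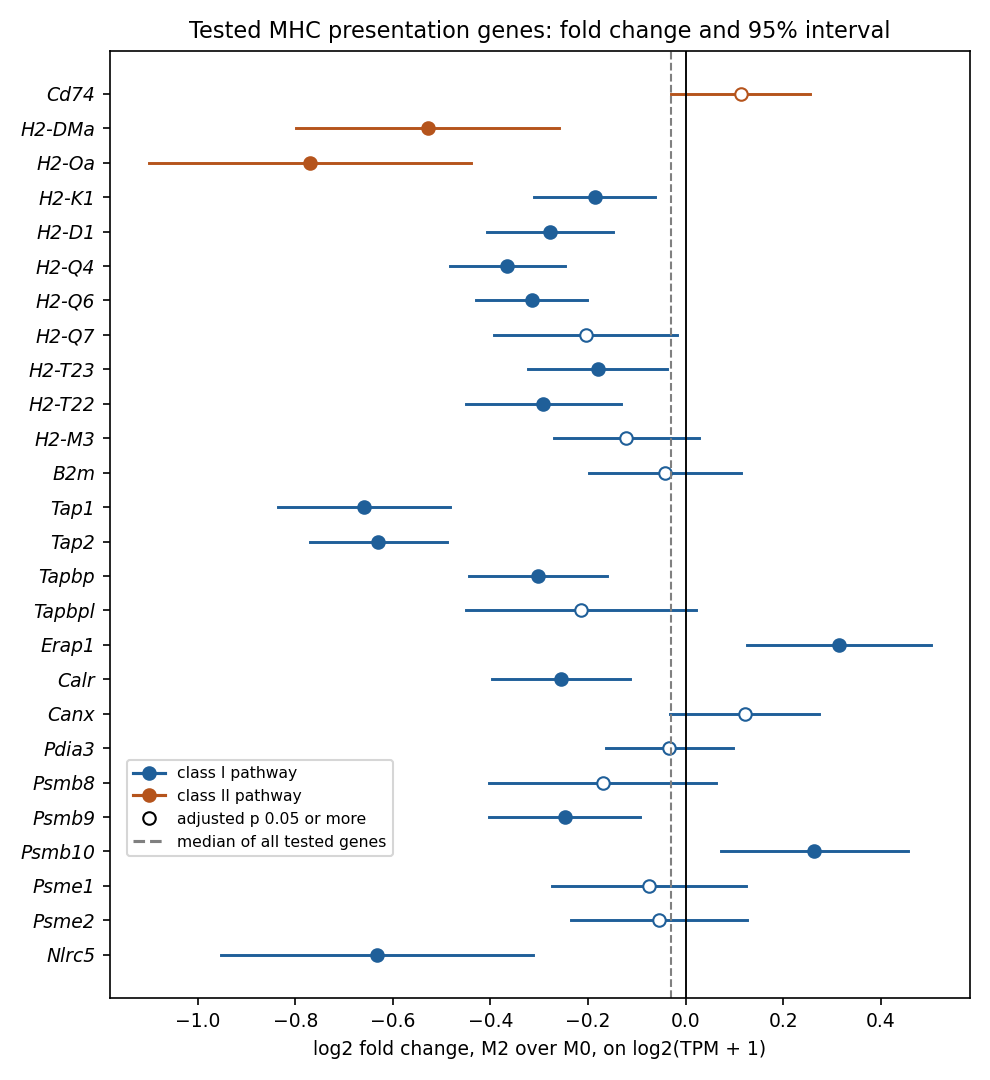
Log2 fold change on log2(TPM + 1), M2 over M0, with its 95% interval from limma for the 26 genes that passed the filter, filled where the adjusted p was under 0.05. Tap1, Tap2, Nlrc5, H2-DMa and H2-Oa lie farthest left, between -0.53 and -0.77, and Erap1 and Psmb10 are the 2 filled points on the right, at 0.31 and 0.26.

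The classical heavy chains, which present peptides to CD8 T cells, were both lower. H2-K1 was at 413, 397 and 423 TPM in M0 and 355, 353 and 375 TPM in M2. It fell 1.14-fold (log2 fold change -0.19 ± 0.05 SE, adjusted p = 0.0230) with no overlap. H2-D1 was at 535, 541 and 543 TPM in M0 and 429, 435 and 471 TPM in M2, 1.21-fold lower (log2 fold change -0.28 ± 0.06 SE, adjusted p = 0.00430). The H2-K1 call was lost in 8 of 14 alternatives, among them leaving out M0 replicate 1 (adjusted p = 0.0659), M0 replicate 2 (0.0503), M0 replicate 3 (0.107), M2 replicate 1 (0.0644) or M2 replicate 2 (0.0603). The authors' deposited table did not call it (adjusted p = 0.129). The H2-D1 call held in all 14.

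Non-classical heavy chains have narrower tasks, such as ligands for innate receptors. H2-Q4 was at 144, 145 and 151 TPM in M0 and 116, 110 and 115 TPM in M2, 1.29-fold lower (log2 fold change -0.37, adjusted p = 6.67e-04). H2-Q6 was at 61.2, 60.1 and 60.7 TPM and then 48.5, 47.9 and 49.3 TPM, 1.25-fold lower (log2 fold change -0.32, adjusted p = 0.00123). In both genes the groups lay well apart and the spread within them was small. H2-T22 was at 16.0, 15.7 and 15.6 TPM in M0 and 12.9, 13.2 and 11.9 TPM in M2, 1.24-fold lower (adjusted p = 0.00947). H2-T23, which encodes Qa-1, the ligand of the NKG2A receptor, was at 34.7 ± 1.33 TPM (SD, n = 3) in M0 and 30.5 ± 1.45 TPM (SD, n = 3) in M2. Its call (adjusted p = 0.0448) was lost in 11 of 14 alternatives, with an adjusted p of 0.138 without M0 replicate 1, 0.137 without M0 replicate 2, 0.0712 without M0 replicate 3, 0.137 without M2 replicate 1 and 0.0933 without M2 replicate 2.

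H2-Q7, at 9.97 ± 0.780 TPM (SD, n = 3) in M0 and 8.50 ± 0.208 TPM (SD, n = 3) in M2, missed the threshold (adjusted p = 0.0737), although its groups did not overlap. H2-M3, known for presenting formylated bacterial peptides, was at 37.6, 37.6 and 35.6 TPM in M0 and 33.3, 32.1 and 36.3 TPM in M2, and it missed the threshold too (adjusted p = 0.162). Without M2 replicate 3 it was called lower (log2 fold change -0.17, adjusted p = 0.0265). Most heavy chains share sequence with other genes, some of them outside the 33. Of their 50-base stretches, 46.4% in H2-T22, 39.2% in H2-Q4, 35.0% in H2-Q6, 29.8% in H2-T23, 19.9% in H2-Q7, 14.3% in H2-D1 and 8.79% in H2-K1 also occur in other genes. In H2-M3 the share was only 0.576%. No source at hand says how reads were shared out among such genes, and values of single Q and T genes are uncertain. Counted as 1 gene, H2-Q4, H2-Q6 and H2-Q7 were called lower (log2 fold change -0.35). The BALB/c strain also carries other alleles of these genes than the reference strain, and an H2-L gene that the reference lacks, and the part of this in the values was not tested.

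The light chain did not follow. B2m, which encodes beta-2 microglobulin, was the most abundant of the 33 genes, at 1429, 1296 and 1322 TPM in M0 and 1310, 1247 and 1372 TPM in M2. The groups overlapped, with a log2 fold change of -0.04 (95% interval -0.20 to 0.11, adjusted p = 0.646). Heavy-chain TPM per B2m TPM was 0.877, 0.958 and 0.963 in M0 and 0.789, 0.826 and 0.800 in M2, every M2 library lower. As a ratio within a library, this shows unequal change of the chains and no more.

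Both subunits of the peptide transporter fell. Tap1 was at 16.2, 16.2 and 17.3 TPM in M0 and 10.7, 10.3 and 9.36 TPM in M2, 1.64-fold lower (log2 fold change -0.66 ± 0.08 SE, adjusted p = 2.49e-04). Tap2, the other subunit of the transporter, was at 36.4, 39.3 and 40.3 TPM in M0 and 24.7, 24.9 and 24.2 TPM in M2, 1.57-fold lower (log2 fold change -0.63 ± 0.06 SE, adjusted p = 9.14e-05). The groups were far apart in both, and both calls held in all 14 alternatives. Tapbp, or tapasin, which bridges the transporter and empty class I molecules, was at 86.3, 89.9 and 94.3 TPM and then 68.7, 77.1 and 73.0 TPM, 1.24-fold lower (adjusted p = 0.00459). Its relative Tapbpl, a peptide editor outside the loading complex, was at 9.24 ± 0.343 TPM (SD, n = 3) and 7.88 ± 1.14 TPM (SD, n = 3) and did not pass (adjusted p = 0.127).

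Erap1, the aminopeptidase that trims peptides in the endoplasmic reticulum, went the other way. It was at 28.5, 30.0 and 28.4 TPM in M0 and 38.0, 39.3 and 31.9 TPM in M2, 1.26-fold higher (log2 fold change 0.31 ± 0.08 SE, adjusted p = 0.0145). The lowest M2 value was that of M2 replicate 3, without which the log2 fold change was 0.40 (adjusted p = 4.16e-04). The call was lost without M0 replicate 1 (adjusted p = 0.0505) and without M0 replicate 3 (0.0554). Of its 50-base stretches 14.0% are shared with Cast, a neighbouring gene.

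**Figure D3:**
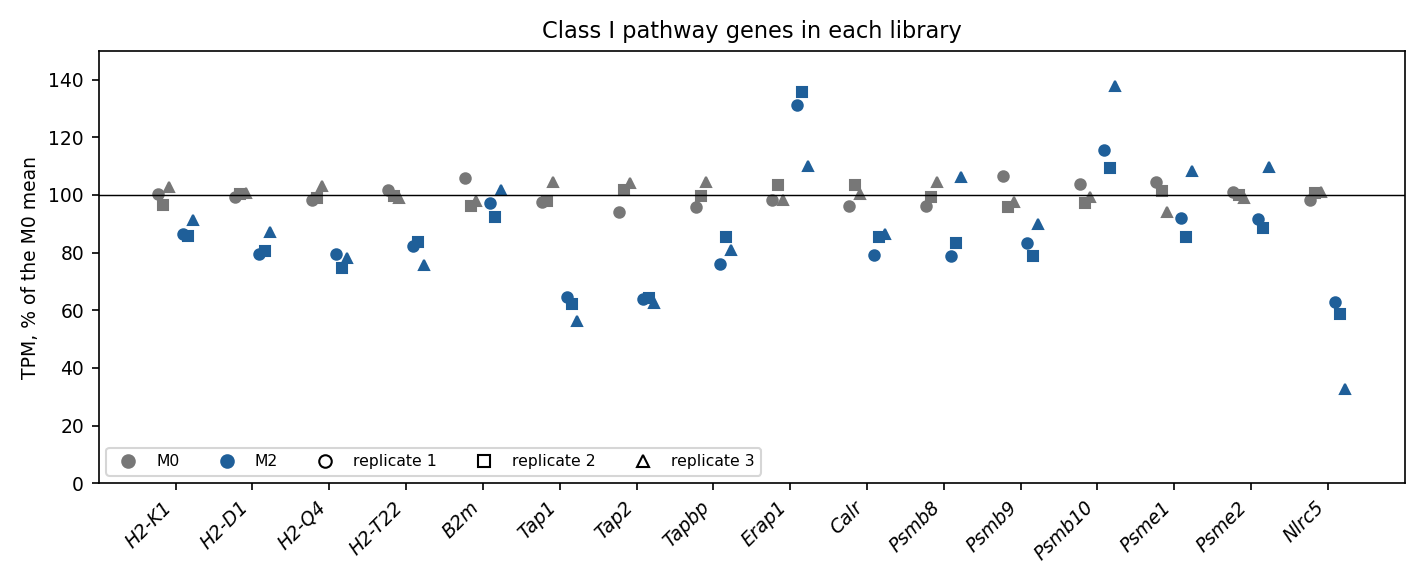
TPM of 16 class I genes in each library as a percentage of the M0 mean of that gene, M0 in grey and M2 in blue, with a symbol for each replicate. Tap1, Tap2 and Nlrc5 stand lowest in all 3 M2 libraries, and the triangle of M2 replicate 3 lies above its group in Psmb8, Psmb10, Psme1 and Psme2 and below it in Nlrc5 and Erap1.

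Among the folding helpers of the endoplasmic reticulum, which serve many proteins besides class I, only Calr (calreticulin) was called. It was at 885, 951 and 925 TPM in M0 and 730, 786 and 797 TPM in M2, 1.19-fold lower (log2 fold change -0.26 ± 0.06 SE, adjusted p = 0.0100). That call was lost without M0 replicate 2 (adjusted p = 0.0566) and with median-ratio scaling (0.0507). Canx (calnexin) was at 258, 286 and 280 TPM in M0 and 296, 320 and 280 TPM in M2, with overlap and an adjusted p of 0.174. It was called higher without M2 replicate 3 (adjusted p = 0.0499) and in the authors' deposited table (adjusted p = 0.0354). Pdia3 (ERp57), the oxidoreductase of the loading complex, was at 517 ± 4.46 TPM (SD, n = 3) and 506 ± 25.9 TPM (SD, n = 3) and did not pass (adjusted p = 0.664).

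The immunoproteasome subunits, which replace 3 catalytic subunits of the standard proteasome, did not move together. Psmb9 (LMP2) was at 73.5, 65.9 and 67.3 TPM in M0 and 57.4, 54.3 and 61.9 TPM in M2, 1.19-fold lower (log2 fold change -0.25 ± 0.07 SE, adjusted p = 0.0174). Psmb10 (MECL-1) was at 54.3, 51.0 and 52.0 TPM and then 60.6, 57.4 and 72.3 TPM, 1.21-fold higher (log2 fold change 0.26 ± 0.08 SE, adjusted p = 0.0323). Neither gene had overlapping groups, and neither call was firm. The Psmb9 call was lost without M0 replicate 1 (adjusted p = 0.0687) and without M2 replicate 2 (0.0556), and the Psmb10 call without M0 replicate 1 (0.0581), M0 replicate 2 (0.1) or M0 replicate 3 (0.0930). Without M2 replicate 3, the highest library for Psmb10, its log2 fold change was smaller, at 0.17 (adjusted p = 0.0284). The authors' deposited table called Psmb10 higher (adjusted p = 0.0151) and did not call Psmb9 (adjusted p = 0.123).

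Psmb8 (LMP7) was at 156, 161 and 170 TPM in M0 and 128, 135 and 172 TPM in M2. The first 2 M2 libraries lay below all of M0 and the third lay above, and the gene did not pass (adjusted p = 0.208). Without M2 replicate 3 it was called lower (log2 fold change -0.30, adjusted p = 0.00229). The same held for the PA28 activator, which opens the proteasome's gate. Psme1 was at 157, 152 and 141 TPM in M0 and 138, 128 and 162 TPM in M2 (adjusted p = 0.514, and 0.0437 without M2 replicate 3). Psme2 was at 136, 134 and 133 TPM and then 123, 119 and 147 TPM (adjusted p = 0.598, and 0.0238 without M2 replicate 3). Of the 50-base stretches of Psme2, 59.3% are shared with Psme2b, so its value is uncertain. Summed, the 3 immunoproteasome subunits stood at 0.362 ± 0.00634 (SD, n = 3) of their constitutive counterparts Psmb5, Psmb6 and Psmb7 in M0 and at 0.338 ± 0.0245 (SD, n = 3) in M2, with M2 replicate 3 (0.366) within the M0 range.

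**Figure D4:**
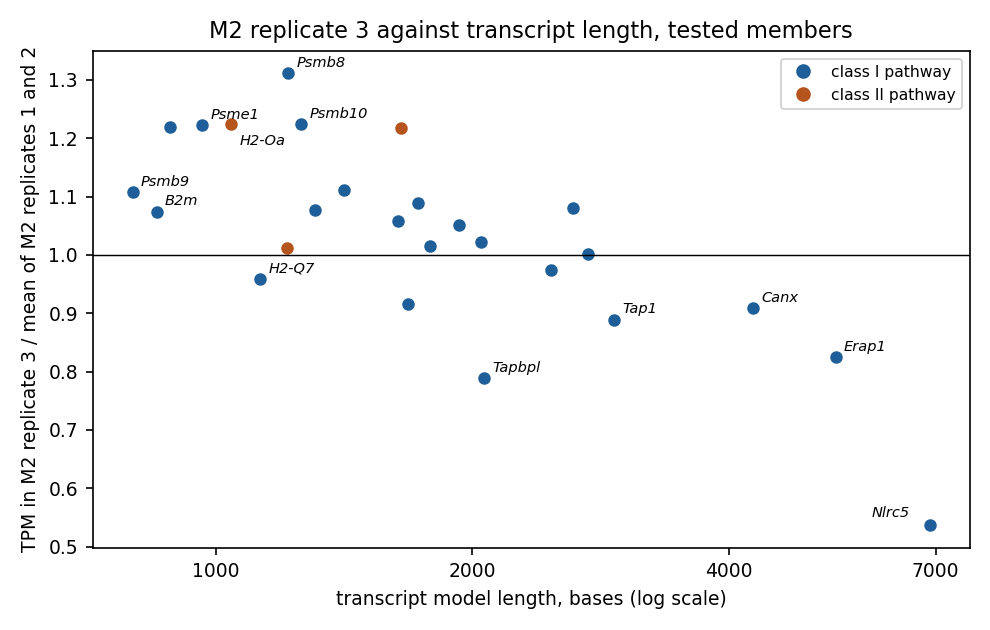
TPM in M2 replicate 3 divided by the mean of M2 replicates 1 and 2 (vertical axis) against transcript model length in bases (horizontal axis, log scale) for the 26 tested genes, class I in blue and class II in orange. Class I genes shorter than 1300 bases lie between 0.958 and 1.31 and longer ones between 0.537 (Nlrc5) and 1.11.

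Most of the short class I genes were high in M2 replicate 3. In the 7 class I genes shorter than 1300 bases that library was at 0.958 to 1.31 times the mean of the other M2 libraries, and in the 16 longer ones at 0.537 to 1.11 times. With the trend on length removed from each library, an alternative added after the data were seen, 13 class I genes were called lower and 3 higher, against 27.1% and 28.4% of all tested genes in that fit, and Psmb8, Psme1 and Psme2 stayed uncalled (adjusted p of 0.106, 0.278 and 0.343).

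Nlrc5, the class I transactivator, was low and fell. It was at 2.48, 2.54 and 2.55 TPM in M0 and 1.59, 1.48 and 0.825 TPM in M2, 1.94-fold lower (log2 fold change -0.63 ± 0.14 SE, adjusted p = 0.00666). All M2 libraries lay below all M0 libraries, and the lowest by far was M2 replicate 3, in which long transcripts were low in general. Nlrc5 is the longest of the 33 transcripts, at 6894 bases. The call held in all 14 alternatives, including the one without that library, and the log2 fold change was -0.95 with a pseudocount of 0.1 and -1.01 by limma-voom.

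Tap1 and Psmb9 lie head to head on chromosome 17 and share the stretch between their starts as a promoter, and Psmb8 and Tap2 follow within the same cluster. The stretch is shown since both its genes were lower in M2, by unequal amounts (1.64-fold for Tap1 and 1.19-fold for Psmb9). It is 225 bases long, at chr17:34187331-34187555 of GRCm38.p6, and is read on the plus strand from the Psmb9 start to the Tap1 start. Capitals mark CCAAT, which is ATTGG on the other strand, and TGACG.
Tap1 and Psmb9: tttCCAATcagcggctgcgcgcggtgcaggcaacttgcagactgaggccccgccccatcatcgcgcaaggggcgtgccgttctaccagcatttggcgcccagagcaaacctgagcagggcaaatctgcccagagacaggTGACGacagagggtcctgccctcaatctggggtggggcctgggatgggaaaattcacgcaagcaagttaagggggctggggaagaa
Annotated transcripts of the 2 genes overlap on opposite strands, with 12.5% of the 50-base stretches of Psmb9 and 5.61% of those of Tap1 shared between the pair. The strand setting of the counting is not stated in the labels or headers, and without it such reads cannot be assigned to one or the other.

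Factors that bind MHC promoters did not all go one way. Of 7 tested, 3 were higher, Nfya (58.9 ± 0.870 to 76.2 ± 6.88 TPM, SD, n = 3 per group), Nfyc and Rfxank, and 1 was lower, Rfx5, the DNA-binding subunit of RFX (6.35 ± 0.581 to 4.71 ± 0.845 TPM, adjusted p = 0.0374). The median log2 fold change was 0.09. Over all tested genes 20.1% were called higher and 23.7% lower. Nfya and Nfyc encode subunits of NF-Y.

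Of 12 genes of interferon signalling toward MHC genes, 4 were lower and 3 higher, with a median log2 fold change of -0.14. Over all tested genes 23.7% were lower and 20.1% higher, as for the lists that follow. Irf8 fell 1.60-fold (115 ± 4.67 to 72.2 ± 3.02 TPM, adjusted p = 4.67e-05), Irf9 fell 1.51-fold (adjusted p = 4.20e-04), Stat2 fell 1.60-fold (adjusted p = 0.00164), and Irf1, known to bind the promoter that Tap1 and Psmb9 share, fell 1.22-fold (20.5 ± 0.690 to 16.9 ± 1.21 TPM, adjusted p = 0.0159). Jak2, the kinase of the interferon-gamma receptor and of others, rose 2.89-fold (11.7 ± 1.05 to 33.8 ± 3.64 TPM, adjusted p = 1.15e-05), and Ifngr2, a chain of that receptor, rose 1.27-fold (adjusted p = 9.48e-04). Irf2 rose 1.34-fold (adjusted p = 0.00193).

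Outside the 33 genes, the 15 other MHC and MHC-like genes had 12 that passed the filter, 5 lower and 2 higher. Mr1, which presents vitamin B metabolites, fell 2.23-fold (9.33 ± 0.456 to 4.19 ± 0.676 TPM, SD, n = 3 per group, adjusted p = 1.79e-04). Hfe, an MHC-like regulator of iron, rose 2.34-fold (6.10 ± 0.142 to 14.3 ± 0.663 TPM, adjusted p = 1.47e-05). H2-Q8 and H2-Q10 fell 1.24-fold and 1.25-fold (adjusted p of 0.00123 and 0.00325), as uncertain as the other Q genes. Both Mr1 and Hfe use B2m as their light chain.

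Among the proteases and turnover factors of class II, 8 of 9 were tested, 1 was higher and 2 were lower, near or below the 20.1% and 23.7% of all tested genes. Ctss, the cathepsin that makes the last cuts in the invariant chain, rose from 515 ± 7.36 to 613 ± 41.5 TPM (SD, n = 3 per group, adjusted p = 0.0125). Ctsb fell 1.17-fold (adjusted p = 0.00983) and Cd9, a tetraspanin, 1.24-fold (adjusted p = 0.00459). Ifi30, or GILT, which reduces disulfides of antigens, was at 381 ± 27.2 and 344 ± 11.2 TPM and did not pass (adjusted p = 0.102).

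Of the 6 constitutive counterparts of the immunoproteasome, limma called 3 higher and 0 lower. At an unadjusted p under 0.05 the lower count was 1 (Psmb6), and 0 by limma-voom and in the authors' deposited table. Pomp, the proteasome assembly factor, rose 1.47-fold (179 ± 3.91 to 264 ± 20.3 TPM, SD, n = 3 per group, adjusted p = 2.41e-04), Psme3, the nuclear activator, 1.23-fold (adjusted p = 0.00434), and Psmb7 1.16-fold (adjusted p = 0.0206). Of 11 genes of cytosolic trimming and cross-presentation 2 were higher and 2 lower, shares below the 20.1% and 23.7% of all tested genes. Npepps, a cytosolic aminopeptidase, fell 1.37-fold (adjusted p = 7.79e-04) and Cybb, the oxidase subunit, 1.35-fold (adjusted p = 0.00510). Thop1 and Lap3, peptidases that degrade or trim peptides in the cytosol, each rose 1.19-fold (adjusted p of 0.0223 and 0.0205).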

How the data were processed

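RNA of 6 libraries, grouped by their sample titles, was compared as M2 against M0. The submitters' processing notes name the tools HOMER 4.11.1, STAR 2.7.5a, bcl2fastq and DESeq2 and, as build, mm10, but assign none of them a step. The strand setting, read length and handling of multiply mapped reads are not stated in any of the sources used. Per the file headers, the first deposited table holds the authors' TPM values with 1 RefSeq transcript model per gene. The second, also deposited by the authors, gives a p-value, an adjusted p-value and a log2 fold change per gene, with values per library that were read from their range as log2-scale, since the deposited header does not name the transform. A positive log2 fold change means a higher value in M2, which was checked against the library columns.

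TPM times model length came in whole steps per library, with 100.0% of the values fine enough to tell within 0.1 read of a whole number. These reads served to show depth over the listed genes and for alternatives. The 11202 genes that reached 1 TPM in 3 or more libraries were fitted by group with limma 3.58.1 in R 4.3.3 on log2(TPM + 1), with a trend of variance on mean, two-sided, and Benjamini-Hochberg adjustment over all of them. A log2 fold change on this scale understates the change of low genes. The code was tested on simulated data. Other steps used Python 3.11.15 with pandas 2.3.3, scipy 1.17.1 and matplotlib 3.10.9. Mean, SD and fold are computed on TPM, the fold as the ratio of group means.

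All 33 genes are named whatever their result. Of the other lists, members were counted and up to 4 with the lowest adjusted p, with Irf1 and Rfx5, were named, except genes that are not reported here; further names were chosen after their values were seen. Genes and lists were chosen with earlier results of these data known. Sequences are from RefSeq (GRCm38.p6), and 26 of the 27 genes with a promoter window have a start within 2 bases of the authors' model start. The 50-base stretches were compared between GENCODE M21 transcripts, on both strands. Whether replicate numbers pair the libraries is not known, and the numbers were not used in the main design.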

Additional observations from a re-analysis of the deposited data

How the results depend on the processing

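Of 367 values of single genes under alternatives, 321 kept their direction and side of the threshold, 34 fell short of it, 8 newly passed and 4 changed sign; 12 of the 26 tested genes were the same throughout. The count of class I genes called lower, 12, ranged from 8 with median-ratio scaling to 16 without M2 replicate 3, and over the fits that leave out 1 library from 9 to 16. The count called higher, 2, was 1 under no filter, 1 under limma-voom on recovered reads and 1 under median-ratio scaling, and ranged from 0 to 3 over fits leaving out 1 library: it was 0 without M0 replicate 1 or M0 replicate 3, 1 without M0 replicate 2 and 3 without M2 replicate 3. Class II genes called higher went from 0 to 4 with no filter. Log2 fold changes near 0 changed sign: B2m ranged from -0.0763 to 0.000235 over fits leaving out 1 library, Pdia3 from -0.0705 to 0.003295 and Psme2 from -0.15 to 0.003493, and Pdia3 was 0.005718 on the authors' log-scale values.

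The number of genes called over the whole table, 4899, ranged from 3556 to 6223. Whether the same replicate numbers mark pairs is not known. Deviations from the group means correlated at -0.033, 0.211 and 0.029 for numbers 1, 2 and 3, and not every library correlated best with its own number. Such deviations also followed transcript length (correlations of 0.251 in M0 replicate 2 and 0.385 in M2 replicate 2), so they cannot decide the pairing. With a replicate block, 4870 genes were called, and of class I genes 11 were lower and 2 higher. The reads behind H2-Aa, H2-Eb1, H2-DMb1, H2-Ob and Ciita are too few to rank these genes.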
